A study of Mus musculus with 4 samples.

Results

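Plasmacytoid dendritic cells (pDCs) that had switched on a reporter of the chemokine gene Cxcl10 were compared with pDCs that had not, for 37 genes of antioxidant defence, glutathione and thioredoxin metabolism and iron handling. The 37 genes were chosen by name from a count table of 27179 genes, and all 37 were found in it. The cells came from C57BL/6 bone marrow precursors grown for 8 days in Flt3 ligand, on which dendritic cells depend, and every culture then received imiquimod (IMQ), which activates the endosomal receptor TLR7, for 24 h at a dose of 1 µg/ml. The pDCs were sorted with SiglecH and CD11b and divided by blue fluorescent protein (BFP), which reports Cxcl10, into a BFP-positive and a BFP-negative fraction with 2 RNA-seq libraries each. The labels do not say where the CD11b and BFP gates lay or which allele carries the reporter, and the population label and the design text differ on whether the BFP-negative cells made CXCL10, so only the BFP status was used. No unstimulated group was analysed here, so both groups carry the imiquimod response. The titles share a code between the same-numbered libraries of the 2 groups, which the labels do not explain, and the test did not pair them. Nothing in the labels says that the 2 libraries of a group came from separate animals or cultures, so the p-values measure the spread between these libraries, which may be technical.

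Cells make superoxide and hydrogen peroxide in respiration and in innate immune signalling, and remove them with superoxide dismutase, catalase, glutathione peroxidases and peroxiredoxins. For the glutathione peroxidases and peroxiredoxins, glutathione and thioredoxin supply the electrons, and glutathione reductase and thioredoxin reductase recharge them with NADPH. The transcription factor Nrf2 (gene Nfe2l2) is held down by Keap1 and, when released by oxidants, binds antioxidant response elements in genes such as Gclm, Prdx1, Txnrd1 and Hmox1. Free iron feeds radical chemistry and is stored in ferritin, whose chains are encoded by Fth1 and Ftl1, while the transferrin receptor (Tfrc) brings iron in and ferroportin (Slc40a1) lets it out.

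The libraries held 11868254 to 12570117 counts, and the 37 genes together took 1.65% to 1.86% of them. Cxcl10 had 3 and 19 counts in the BFP-negative libraries and 149 and 154 in the BFP-positive ones, which checks the sort. Itgam, which encodes the CD11b of the sort, was at 1.77 and 4.10 against 9.61 and 10.6 CPM and did not pass (adjusted p = 0.0546). The pDC gene Siglech, also used in the sort, was abundant in both groups, at 611 and 615 against 785 and 820 CPM (adjusted p = 0.0485). CPM is a gene's count relative to the total of its library, scaled here by TMM factors, which equalise the libraries' composition. Marker genes moved with the groups. Of 14 pDC markers 2 were higher (Siglech and Runx2) and 4 lower (Ly6d, Ccr9, Klk1 and Cox6a2). Their summed level was 24330 to 28900 CPM in BFP-negative and 19340 to 20240 CPM in BFP-positive libraries. Most of that sum was Ly6d alone, at 17289 and 20947 against 13612 and 12571 CPM, so the sum follows this gene. Of 13 monocyte and macrophage markers, 9 could be tested. In BFP-positive cells 6 of them rose and 2 fell, and the summed level of the list was 640.5 to 777 CPM in BFP-negative and 1386 to 1535 CPM in BFP-positive libraries. The largest part of it was Ly6c2, at 299 and 379 against 777 and 897 CPM. Cd68, the next largest, did not pass (249 and 277 against 273 and 292 CPM). The list's members Mertk, C1qa and Vcan had no count in any library. Of 13 conventional dendritic cell markers 12 could be tested and 5 were higher, with a summed level of 922 to 938 against 1259 to 1386 CPM. Of 7 B cell and plasma cell markers 6 could be tested and 3 were lower (135 to 141 against 101 to 103 CPM summed). Most of that sum was Cd79b, which did not pass (90.1 and 96.2 against 90.2 and 96.7 CPM). Of 4 tested T and NK cell markers 1 was lower. That gene was Cd8a (1495 and 1428 against 1043 and 1107 CPM), which made up nearly all of the list's summed level (1436 to 1516 against 1052 to 1126 CPM). Of the same list Cd3e had 0 and 0 counts in BFP-negative and 0 and 1 in BFP-positive libraries. Cd3d had 2 and 0 against 0 and 20 counts, and neither was tested. Cd8a is therefore not read here as a measure of T cells. None of 5 granulocyte and 8 stress markers passed. The part of these marker shifts in the differences below was not tested. In bulk RNA, fewer cells of a type and less RNA per cell cannot be told apart. Of 10 erythroid markers, of interest beside iron genes, 8 were found in the count table, without Hbb-bt and Ahsp. Only 1 could be tested, Alas2, which did not pass. The list summed to at most 6.11 CPM in a library, all of it Alas2 in BFP-negative replicate 1. Slc4a1, Klf1 and Epor had no count.

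Most of the genes were little different between the groups. The quasi-likelihood test of edgeR was used, and its p-values were adjusted by Benjamini-Hochberg over 11706 tested genes. Of the 37 genes, 34 could be tested, and 3 were higher (Gpx1, Prdx4 and Prdx5) and 2 lower (Gsr and Gstp1) in BFP-positive cells at an adjusted p below 0.05. That is 14.7% of the 34, beside 11.1% of all tested genes, so the number of changed genes was near the background and is no result about the group as a whole. By direction, 7.6% of all tested genes were called higher and 3.51% lower. For 22 of the 34 genes (64.7%) the groups were fully apart, with both libraries of one above both of the other, beside 54.2% of all tested genes. For 16 of these (47.1% of the 34) both BFP-positive libraries were below both BFP-negative ones and for 6 (17.6%) both were above, where each direction took 27.1% of all tested genes. The median log2 fold change, BFP-positive over BFP-negative, was -0.15 over the 34 genes and -0.02 over all tested genes. Only Prdx4 reached a 2-fold difference (2.94% of the 34, beside 15.7% of all tested genes). These 2 shares are of unlike genes, since the median level was 114.2 CPM over the 34 and 21.25 CPM over all tested genes. The median absolute log2 fold change was 0.33 over the 34 genes and 0.36 over all tested genes. For 22 of the 29 genes that did not pass, the 95% interval of the fold change lay within 2-fold in both directions.

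**Figure D1:**
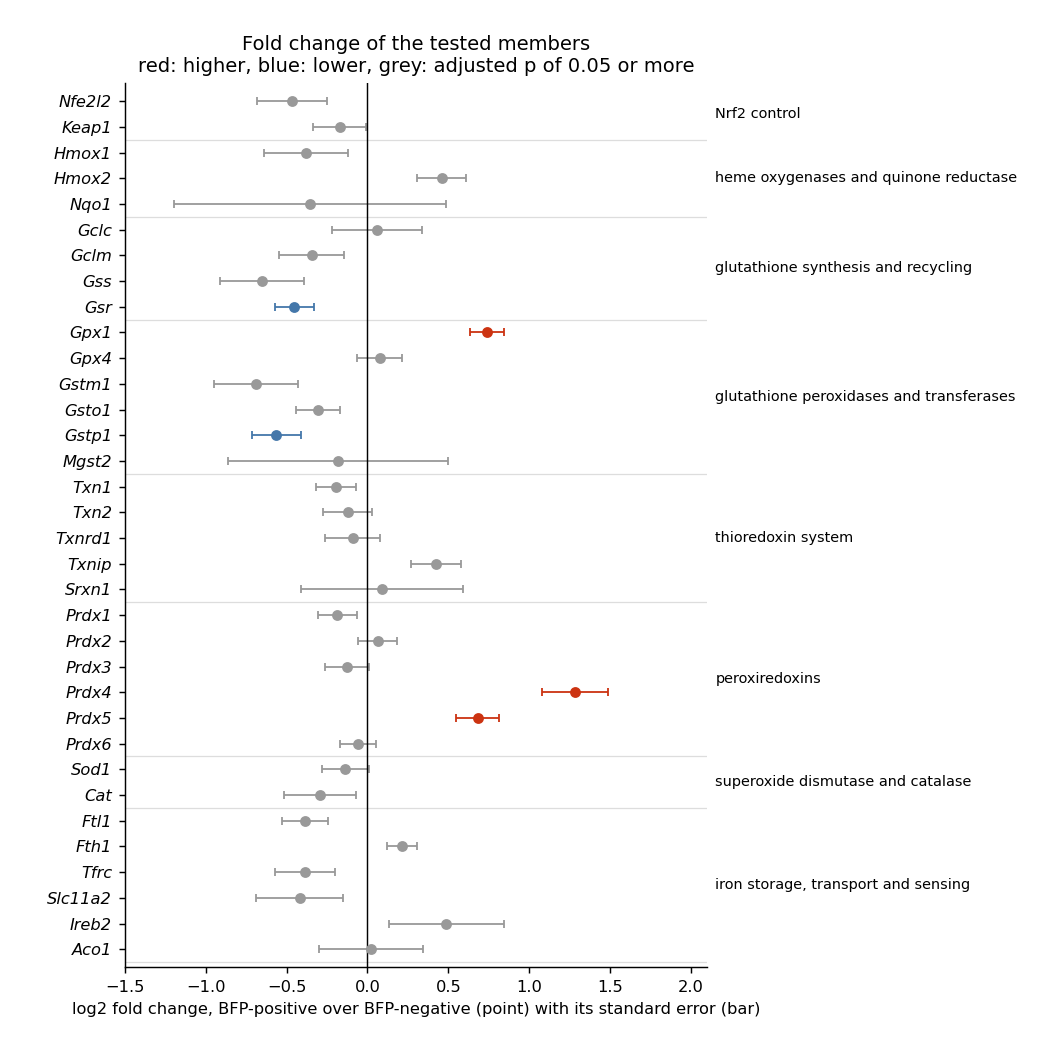
Log2 fold change of the 34 tested genes, BFP-positive over BFP-negative (horizontal axis), grouped by role; points are edgeR estimates and bars their standard errors. Prdx4, Gpx1 and Prdx5 lie to the right of 0 in red, Gsr and Gstp1 to the left in blue, and the 29 grey genes, from -0.69 to 0.49, did not pass the threshold.

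Levels per gene length, as the deposited log2 RPKM, spread widely among the members. Ferritin heavy chain, Fth1, was the highest, at 12.46 and 12.42 in BFP-negative and 12.60 and 12.57 in BFP-positive libraries, which put it 13th among all tested genes. Gpx1 followed at rank 15, with 11.73, 11.65, 12.48 and 12.24 in the same order of libraries. Prdx1, a cytosolic peroxiredoxin, and Ftl1, the ferritin light chain, were next at ranks 78 and 89, and their values overlapped each other (10.12 to 10.60 for Prdx1 and 9.997 to 10.64 for Ftl1). These 4 genes carried 69.8% to 76.0% of the counts of all 37. Of the 34 tested genes 15 (44.1%) were among the 1000 highest per length, a class that holds 8.54% of tested genes. The lowest tested member was Nqo1, a quinone reductase widely used as a reporter of Nrf2 activity, with a mean of 0.05 and 15 to 28 counts in a library.

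**Figure D2:**
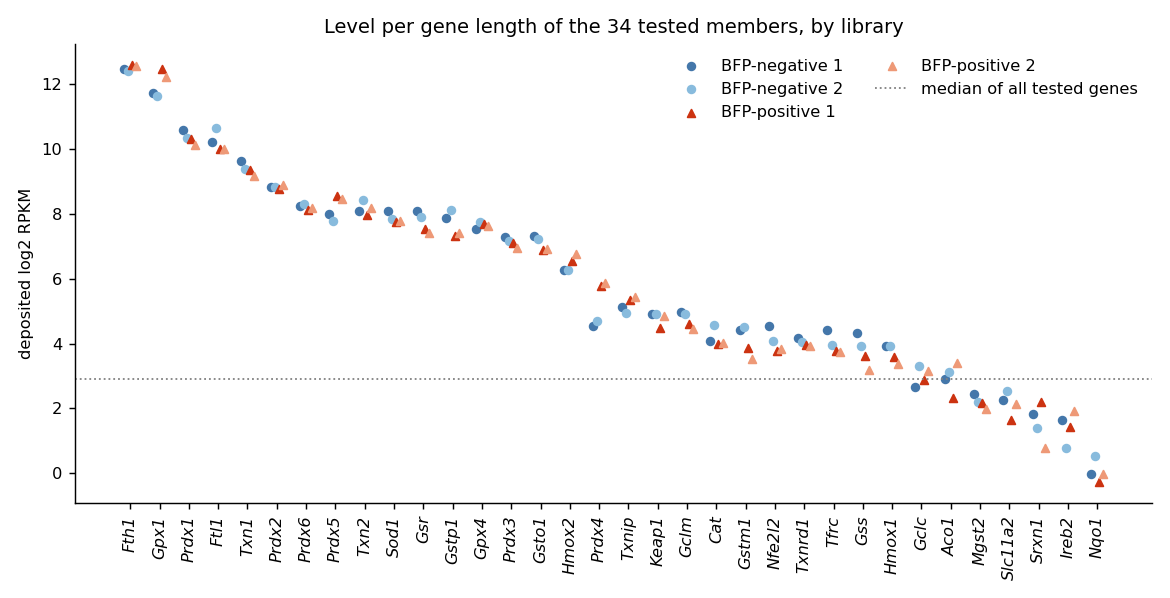
Deposited log2 RPKM (vertical axis) of the 34 tested genes in each of the 4 libraries, ordered by their mean, with the median of all tested genes (2.90) as a dotted line. Circles are BFP-negative and triangles BFP-positive libraries. Fth1 and Gpx1 stand above 11.6 in every library, and Nqo1 is the lowest.

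Several kinds of sequence help to place these genes. The first is the antioxidant response element. The core TGACNNNGC was searched on both strands in windows from 250 bases before to 50 after each annotated start in the RefSeq table of GRCm38.p6. It occurred in 7 of the 31 genes that had a window (Nfe2l2, Gclm, Mgst1, Txnrd1, Srxn1, Prdx1 and Sod1; 22.6%, where Mgst1 and Slc11a1 of the 31 were not tested). Over all genes with a window the share was 14%, and over the tested ones 17%. Of the called genes Gpx1, Prdx4, Prdx5 and Gstp1 had a window and none of these held it, but the window of Prdx4 belongs to an annotated start inside the gene's span and not to its outermost start. The 250 bases before the table's start of Gclm and Prdx1, well-known Nrf2 targets that did not pass the test, and of Gpx1, which was higher, are shown side by side to compare genes with and without the motif, with the match in capitals (here on the minus strand of the gene). The end of the Gclm stretch runs into the gene's span, which begins at 122245487 with another start. A match is a description of the letters and no evidence of binding, and its absence says only that these letters are not in this window.
Gclm, chr3:122245307-122245556, plus strand: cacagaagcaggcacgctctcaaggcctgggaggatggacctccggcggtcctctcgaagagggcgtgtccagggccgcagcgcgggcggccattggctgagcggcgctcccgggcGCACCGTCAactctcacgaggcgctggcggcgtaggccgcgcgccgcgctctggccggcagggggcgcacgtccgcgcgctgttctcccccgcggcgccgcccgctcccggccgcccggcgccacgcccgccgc
Prdx1, chr4:116685349-116685598, plus strand: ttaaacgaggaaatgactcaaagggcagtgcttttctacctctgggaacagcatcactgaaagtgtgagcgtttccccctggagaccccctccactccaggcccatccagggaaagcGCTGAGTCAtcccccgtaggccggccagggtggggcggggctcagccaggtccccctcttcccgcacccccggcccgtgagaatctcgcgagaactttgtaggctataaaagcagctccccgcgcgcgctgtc
Gpx1, chr9:108338830-108339079, plus strand: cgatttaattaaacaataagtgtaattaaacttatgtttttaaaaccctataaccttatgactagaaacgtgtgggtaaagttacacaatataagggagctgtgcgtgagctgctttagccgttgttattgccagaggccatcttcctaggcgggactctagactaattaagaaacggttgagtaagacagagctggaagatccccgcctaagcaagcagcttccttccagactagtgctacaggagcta

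The second is the selenocysteine codon. Gpx1, Gpx4 and Txnrd1 use selenocysteine in their catalytic centre, encoded by a TGA that elsewhere means stop, and GENCODE M21 (GRCm38) annotates it in these 3 genes and in 24 genes in all (0.11% of coding genes). The codon (capitals, with its position) and 12 bases of the transcript on either side show what the 3 share, since one was higher and the others did not pass. In Txnrd1 it is codon 612 of 613, so the stretch shown runs past the coding sequence into the stop codon and the 3′ UTR.
Gpx1, chr9:108339451-108339453, plus strand: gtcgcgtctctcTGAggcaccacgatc
Gpx4, chr10:80054737-80054739, plus strand: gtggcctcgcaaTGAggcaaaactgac
Txnrd1, chr10:82896037-82896039, plus strand: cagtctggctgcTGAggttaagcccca

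The third is the iron-responsive element, an RNA hairpin bound by the iron regulatory proteins, which are encoded by Aco1 and Ireb2. In the 5′ UTR of ferritin mRNA it controls translation, and in the 3′ UTR of Tfrc it controls mRNA decay, so RNA level bears on iron differently for the 2 classes. A search of GENCODE M21 coding transcripts for a bulged C, 5 paired bases and a loop of CAGTG followed by A, C or T found such a hairpin in 1.01% of genes. It lay in an untranslated region of Ftl1, Fth1, Tfrc and Slc40a1, with 4 copies in Tfrc. A site of Keap1 was not wholly within an untranslated region. The sites of the ferritin genes and the first of Tfrc are shown with the loop in capitals.
Fth1, chr19:9982732-9982760, plus strand: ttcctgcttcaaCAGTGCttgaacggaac
Ftl1, chr7:45459779-45459807, minus strand: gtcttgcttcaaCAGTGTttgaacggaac
Tfrc, chr16:32631219-32631247, plus strand: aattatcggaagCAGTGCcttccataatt

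Neither regulator of the Nrf2 response passed the test. Nfe2l2, which encodes Nrf2 itself, was at 55.6 and 41.4 CPM in BFP-negative and 34.3 and 35.8 CPM in BFP-positive libraries (log2 fold change -0.47 with an SE of 0.22, edgeR adjusted p = 0.215). The BFP-positive libraries were both lower, but the BFP-negative pair differed by more than the gap between the groups. Keap1, its inhibitor, was at 130.4, 132.8, 102 and 131.6 CPM (log2 fold change -0.17 with an SE of 0.16), and 1 BFP-positive library was level with the BFP-negative ones. Without BFP-positive replicate 1 the Keap1 estimate was 0.0008. Among the classical targets, Hmox1, the inducible heme oxygenase, was at 23.1 and 23.5 CPM in BFP-negative and 19.1 and 16.6 CPM in BFP-positive libraries (log2 fold change -0.38 with an SE of 0.26, adjusted p = 0.423). Nqo1 was at 1.45 and 2.21 against 1.29 and 1.56 CPM, with a 95% interval of -2.23 to 1.51 on the log2 scale. A change of 2-fold in either direction was therefore not excluded. Hmox2, the constitutive heme oxygenase, was at 102 and 104 CPM in BFP-negative and 132 and 152 CPM in BFP-positive cells. Its log2 fold change of 0.46, SE 0.15 did not pass (adjusted p = 0.0819), although it did with DESeq2 (0.0393) and when genes under 10 CPM were left out (0.0416). Hmox2 overlaps Cdip1 by 1282 bases, and Cdip1 had a log2 fold change of 0.07.

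Glutathione synthesis and recycling held 1 changed gene. Gsr (Entrez gene 14782, chromosome 8, 33653238 to 33698162 on GRCm38), the reductase that returns oxidised glutathione to its reduced form, was at 700.5 and 635 CPM in BFP-negative and 510.0 and 466 CPM in BFP-positive libraries. It fell 1.37-fold (log2 fold change -0.45 with an SE of 0.12, adjusted p = 0.0371). The groups did not overlap, yet the call was lost without BFP-negative replicate 1 and without either library of the BFP-positive group (adjusted p = 0.1205, 0.104 and 0.273). Gss, glutathione synthetase, was at 36.1 and 28.2 against 23.3 and 17.5 CPM (log2 fold change -0.65 with an SE of 0.26, adjusted p = 0.1499). Gclm, the modifier subunit of the rate-limiting ligase, was at 44.4 and 43.5 against 36.4 and 32.8 CPM (-0.35 with an SE of 0.20). The catalytic subunit Gclc was at 21.1 and 33.9 against 25.7 and 31.5 CPM, with groups that overlapped and an estimate (0.06, SE 0.28) whose sign turned with library totals in place of TMM.

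Among the enzymes that use glutathione, the peroxidase Gpx1 rose and the transferase Gstp1 fell. Gpx1 (Entrez gene 14775, chromosome 9, 108339080 to 108340342), the cytosolic glutathione peroxidase that reduces hydrogen peroxide, was at 3435 and 3321 CPM in BFP-negative and 6077 and 5194 CPM in BFP-positive libraries. Both BFP-positive libraries stood above both BFP-negative ones, and the 1.67-fold rise (log2 fold change 0.74 with an SE of 0.11, adjusted p = 0.00172) stayed past the threshold without each library in turn, at 0.62 to 0.85. Gpx4, the peroxidase of lipid peroxides in membranes and also a selenoprotein, was at 215 and 259 against 254 and 245 CPM. Its groups overlapped, and its log2 fold change of 0.07 had a 95% interval of -0.23 to 0.38. Per length, Gpx1 exceeded Gpx4 by 18.4-fold and 14.7-fold in BFP-negative and 27.5-fold and 24.4-fold in BFP-positive libraries. The ratio of Gpx1 to Gsr per length was 12.5 and 13.4 in BFP-negative and 30.5 and 28.5 in BFP-positive libraries. These ratios, chosen after their values were seen, do not depend on the scaling of the libraries.

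Gstp1 (Entrez gene 14870, chromosome 19, 4035411 to 4037912), a pi-class transferase that couples glutathione to electrophiles, was at 167 and 204 CPM in BFP-negative and 121 and 131 CPM in BFP-positive libraries. It fell 1.48-fold (log2 fold change -0.56 with an SE of 0.15, adjusted p = 0.0399). Its call rested on BFP-negative replicate 2 and on both BFP-positive libraries, and was lost without each of these 3 (adjusted p = 0.198, 0.187 and 0.104). Reads of near-identical copies can be split between them, and the pseudogene Gstp-ps on chromosome 1 held 1824 and 1638 counts against 1187 and 1296 (log2 fold change -0.40 with an SE of 0.15, adjusted p = 0.121), while Gstp2 had at most 52 counts in a library. Gstp1 and Gstp-ps were thus both below their BFP-negative values in both BFP-positive libraries. The other cytosolic transferases did not pass. Gstm1, of the mu class, had the most negative estimate of all members, at 26.6 and 29.0 against 19.3 and 15.2 CPM (log2 fold change -0.69 with an SE of 0.26, adjusted p = 0.129). Gsto1, of the omega class, was at 181 and 173 against 141 and 145 CPM (-0.31 with an SE of 0.14). Of the membrane-bound transferases, Mgst2 was at 2.39 to 3.05 CPM throughout. Mgst1 had 0 and 29 counts in BFP-negative and 6 and 0 in BFP-positive libraries and was not tested.

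**Figure D3:**
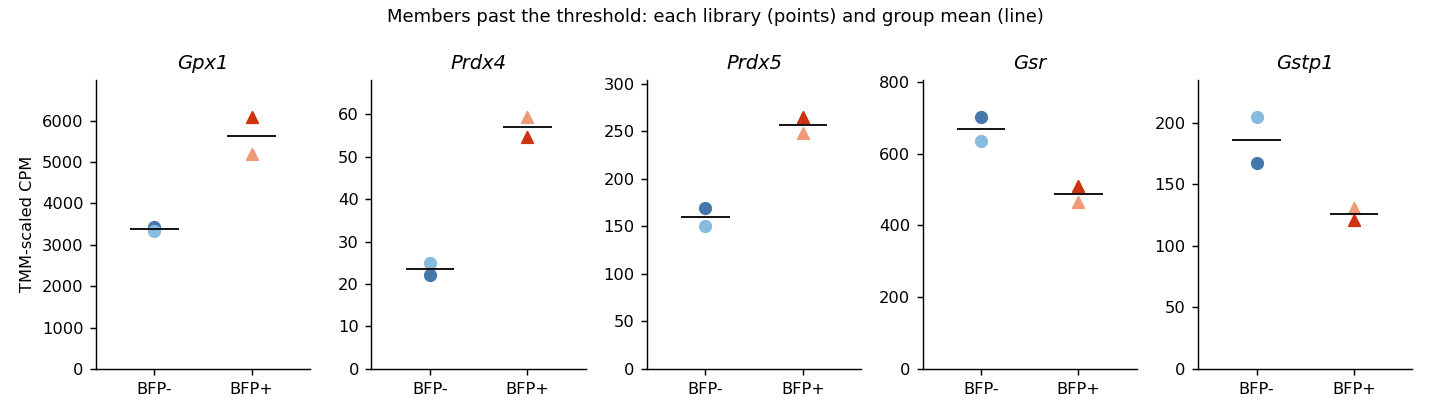
TMM-scaled CPM (vertical axes, each from 0) of the 5 genes past the threshold in the 2 BFP-negative (circles) and 2 BFP-positive (triangles) libraries, with the group mean as a line. The BFP-positive points lie above the BFP-negative ones for Gpx1, Prdx4 and Prdx5 and below them for Gsr and Gstp1.

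The peroxiredoxins, which reduce peroxides through a reactive cysteine, held 2 of the 3 genes that were higher, and the other 4 of its 6 members did not pass. Prdx4 (Entrez gene 53381, chromosome X, 155323918 to 155342272), the member that resides in the endoplasmic reticulum, was at 22.02 and 24.9 CPM in BFP-negative and 54.8 and 59.3 CPM in BFP-positive libraries. It rose 2.43-fold (log2 fold change 1.28 with an SE of 0.20, adjusted p = 0.00317), the largest change of the 34 genes, and kept its call without each library in turn (1.20 to 1.39). Prdx5 (Entrez gene 54683, chromosome 19, 6906697 to 6910106), found in mitochondria, peroxisomes and cytosol, was at 169.8 and 150.4 CPM against 265 and 249 CPM. It rose 1.603-fold (log2 fold change 0.68 with an SE of 0.13, adjusted p = 0.00957), and without BFP-positive replicate 1 its adjusted p was 0.0536. Prdx5 overlaps Trmt112 by 409 bases, and the libraries do not mark strand, so reads there cannot be told apart. Trmt112 itself was at 63.8 and 60.3 against 53.0 and 47.7 CPM (log2 fold change -0.30, adjusted p = 0.350) and did not pass. The most abundant peroxiredoxin, Prdx1, was at 2122 and 1825 CPM in BFP-negative and 1846 and 1623 CPM in BFP-positive cells. Its groups overlapped (log2 fold change -0.19, SE 0.12, 95% interval -0.45 to 0.08). Prdx2, also cytosolic, was at 419 and 428 against 419 and 465 CPM, and its estimate of 0.06 was -0.0033 with library totals and -0.0049 on the deposited log2 RPKM. Prdx6, which has a single reactive cysteine, was at 691 and 727 against 663 and 699.6 CPM, and the mitochondrial Prdx3 at 218 and 206 against 205 and 183 CPM.

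In the thioredoxin system, which recharges most peroxiredoxins, no gene passed. Cytosolic Txn1 was at 814 and 700.1 CPM in BFP-negative and 695.5 and 628 CPM in BFP-positive libraries, with a log2 fold change of -0.19, SE 0.12. Mitochondrial Txn2 was at 335 and 439 against 329 and 382 CPM. Txnrd1, the cytosolic thioredoxin reductase, was level at 69.3 and 65.3 against 63.7 and 62.7 CPM (log2 fold change -0.09, 95% interval -0.47 to 0.28). Txnip, which binds and inhibits thioredoxin, was at 94.7 and 86.2 against 117 and 126 CPM without overlap, but did not pass (log2 fold change 0.42 with an SE of 0.15, adjusted p = 0.1105). Srxn1, the sulfiredoxin that repairs overoxidised peroxiredoxins and a known Nrf2 target, ranged from 4.53 to 12.1 CPM, and both extremes were BFP-positive libraries. Sod1, the cytosolic superoxide dismutase, was at 170 and 146 against 142 and 145 CPM. Catalase, Cat, was at 41.8 and 60.6 against 41.1 and 42.5 CPM. Neither passed (log2 fold changes -0.14, SE 0.14 and -0.29, SE 0.22).

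The 2 ferritin chains differed in the sign of their values, though neither passed the test. Fth1, the heavy chain with the ferroxidase activity, was at 4717 and 4712 CPM in BFP-negative and 5491 and 5432 CPM in BFP-positive libraries (log2 fold change 0.21 with an SE of 0.09, adjusted p = 0.186). Ftl1, the light chain, was at 1128 and 1535 against 1009 and 1029 CPM (log2 fold change -0.39 with an SE of 0.14, adjusted p = 0.1215). Per length the heavy to light ratio was 4.68 and 3.44 in BFP-negative and 6.09 and 5.91 in BFP-positive libraries. The ratio was chosen after the values were seen, and its lack of overlap follows from the opposite signs of the 2 chains. The value of Ftl1 rested on the BFP-negative pair. It was -0.59 (adjusted p = 0.00495) without BFP-negative replicate 1 and -0.13 (adjusted p = 0.6425) without BFP-negative replicate 2. The pseudogene Ftl1-ps2 held 888 to 1482 counts, so Ftl1 reads may be split. Tfrc, whose mRNA is stabilised when iron is short, was at 102 and 75.7 CPM in BFP-negative and 68.1 and 68.2 CPM in BFP-positive libraries (log2 fold change -0.38 with an SE of 0.19, adjusted p = 0.239).

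Of the iron transporters only Slc11a2 (DMT1), which carries ferrous iron out of endosomes, could be tested, at 25.95 and 32.3 against 17.9 and 25.7 CPM (log2 fold change -0.42 with an SE of 0.27). Slc11a1 (Nramp1), a phagosomal metal transporter of macrophages, had 0, 0, 0 and 3 counts. Slc40a1, the iron exporter ferroportin, had no count in any library, so that up to 3 counts, worth 0.237 to 0.258 CPM depending on the library, could have been missed. Reads copied by PCR are not separate molecules, and this limit is one of counting alone. The iron sensors varied within the groups. Ireb2 was at 17.5 and 9.86 against 15.96 and 22.4 CPM, and Aco1 at 31.0 and 37.2 against 22.1 and 47.2 CPM (estimates of 0.49, SE 0.36 and 0.02, SE 0.32).

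**Figure D4:**
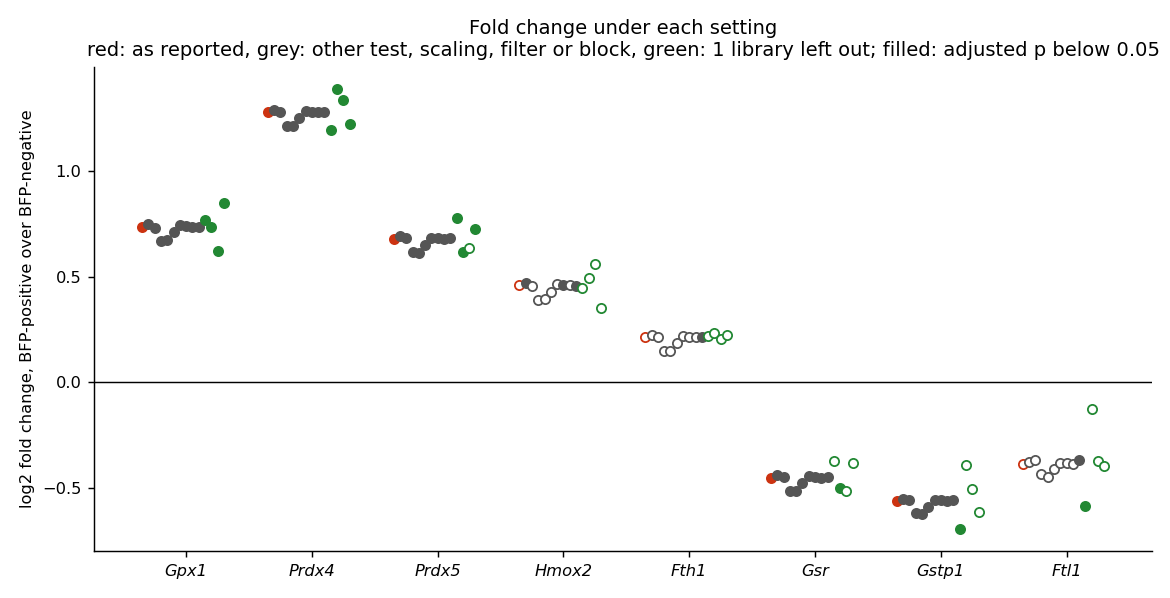
Log2 fold change (vertical axis) of 8 genes as reported (red), under the other tests, scalings, filters and the replicate block (grey), and with 1 library left out (green); filled points have an adjusted p below 0.05. Gpx1 and Prdx4 are filled throughout, Gsr and Gstp1 are open in 3 of the 4 settings that leave out a library, and no gene shown changes sign.

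Genes that work beside these 37 were taken from 4 lists with 114 genes, of which 96 could be tested. Among them 8 were higher and 7 lower (15.6%, beside 11.1% of all tested genes), and their median log2 fold change was -0.15. Of 24 tested glutathione partners, 1 was higher and 1 lower (8.33%). Gstt1, a theta-class transferase, was at 41.7 and 57.9 CPM in BFP-negative and 94.1 and 86.3 CPM in BFP-positive libraries (log2 fold change 0.86 with an SE of 0.20, adjusted p = 0.0205). Slc3a2, the heavy chain of the cystine and other amino acid transporters, fell from 470 and 515 to 339 and 366 CPM (-0.48 with an SE of 0.12). Gstt3, the next by p, did not pass (0.36, SE 0.13, adjusted p = 0.113). Of 23 thioredoxin and peroxide partners, 1 was higher and 4 lower (21.7%). Msrb1, a selenoprotein that reduces oxidised methionine, rose from 11.6 and 14.2 to 28.3 and 34.5 CPM (log2 fold change 1.28 with an SE of 0.27, adjusted p = 0.0129). The mitochondrial superoxide dismutase Sod2, a well-known NF-kB target, fell from 233 and 223 to 148 and 153 CPM (-0.60, SE 0.13, adjusted p = 0.015). Selenos, a selenoprotein of the endoplasmic reticulum membrane, fell from 210 and 197 to 141 and 126 CPM, Park7 from 538 and 562 to 421 and 365 CPM, and Sesn1, a stress-responsive sestrin, from 82.0 and 50.3 to 37.2 and 31.0 CPM. With the members included, 11 genes of these lists carried an annotated selenocysteine, and the rest of the 24 annotated genes were not examined. Of these 11, 10 could be tested, and 2 were higher (Gpx1 and Msrb1) and 1 lower (Selenos), beside 11.1% of all tested genes called. So few genes allow no statement about selenoproteins as a class. None of the 7 calls among the glutathione, thioredoxin and peroxide partners held without each library. Without BFP-negative replicate 1, Gstt1, Selenos and Sesn1 lost theirs (adjusted p = 0.0750, 0.0538 and 0.219), and without BFP-negative replicate 2 Slc3a2 and Park7 did (0.107 and 0.0792). Without BFP-positive replicate 1 those of Gstt1, Slc3a2, Sod2 and Park7 were lost (0.0612, 0.207, 0.0986 and 0.0587). Without BFP-positive replicate 2 those of Slc3a2, Msrb1, Sod2, Selenos, Park7 and Sesn1 were lost (0.1035, 0.0645, 0.0757, 0.152, 0.279 and 0.105).

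Of 23 tested Nrf2 partners and targets, 4 were higher and 1 lower (21.7%, beside 11.1% of all tested genes). With so few genes no statement is made about Nrf2 targets as a class. Taldo1, transaldolase of the pentose phosphate pathway, rose from 764 and 714 to 1256 and 1140 CPM (log2 fold change 0.70 with an SE of 0.11, adjusted p = 0.00342). Cbr3, a carbonyl reductase, rose from 9 and 11 counts to 99 and 131 (3.58, SE 0.57, adjusted p = 0.00319). Blvrb, a biliverdin reductase, rose from 78.4 and 88.5 to 132 and 116 CPM (0.57, SE 0.16, adjusted p = 0.0464). Nfe2, a factor related to Nrf2 and known from megakaryocytes and erythroid cells, had 1 and 5 counts against 48 and 51 (4.07, SE 0.98, adjusted p = 0.0246). Abcb6, a porphyrin transporter, fell from 41.1 and 54.6 to 18.1 and 15.8 CPM (-1.497, SE 0.24, adjusted p = 0.0033). Of 26 tested iron and heme partners, 2 were higher and 1 lower (11.5%, near the share of all tested genes). Hfe, which regulates the transferrin receptor, rose from 14 and 30 counts to 191 and 335 (3.65, SE 0.48, adjusted p = 0.000925). Cp, which encodes the ferroxidase ceruloplasmin, had 1 count over the BFP-negative and 130 over the BFP-positive libraries, which is 137 times as much after scaling (24.2 to 5461, exact binomial interval at 95% for counting error only). Cpox, an enzyme of heme synthesis, fell from 60.5 and 56.5 to 27.0 and 29.7 CPM (-1.04, SE 0.20, adjusted p = 0.00746). Of the 15 calls in these lists, 6 held without each library in turn, those of Taldo1, Cbr3, Abcb6, Hfe, Cp and Cpox. The call of Blvrb was lost without BFP-negative replicate 1 or either BFP-positive replicate (adjusted p = 0.149, 0.2602 and 0.0846), and with library totals, upper-quartile factors or the deposited log2 RPKM. That of Nfe2 was lost when the same libraries were left out (0.0648, 0.1025 and 0.114) and with limma-voom (0.0525). Hfe, Cp, Cbr3 and Nfe2 had at most 30 counts in a BFP-negative library, and the monocyte and macrophage markers moved beside them. Of that list Csf1r, Cd14, Lyz2, Fcgr1, Ccr2 and Ly6c2 were higher, with Csf1r at 0.121 and Fcgr1 at 0.673 CPM on average in BFP-negative cells against 27.8 and 23.7 CPM. Adgre1 (30.2 to 8.45 CPM) and Apoe (13.9 to 1.31 CPM) of the same list were lower. The part of these markers in the rises was not tested.

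**Figure D5:**
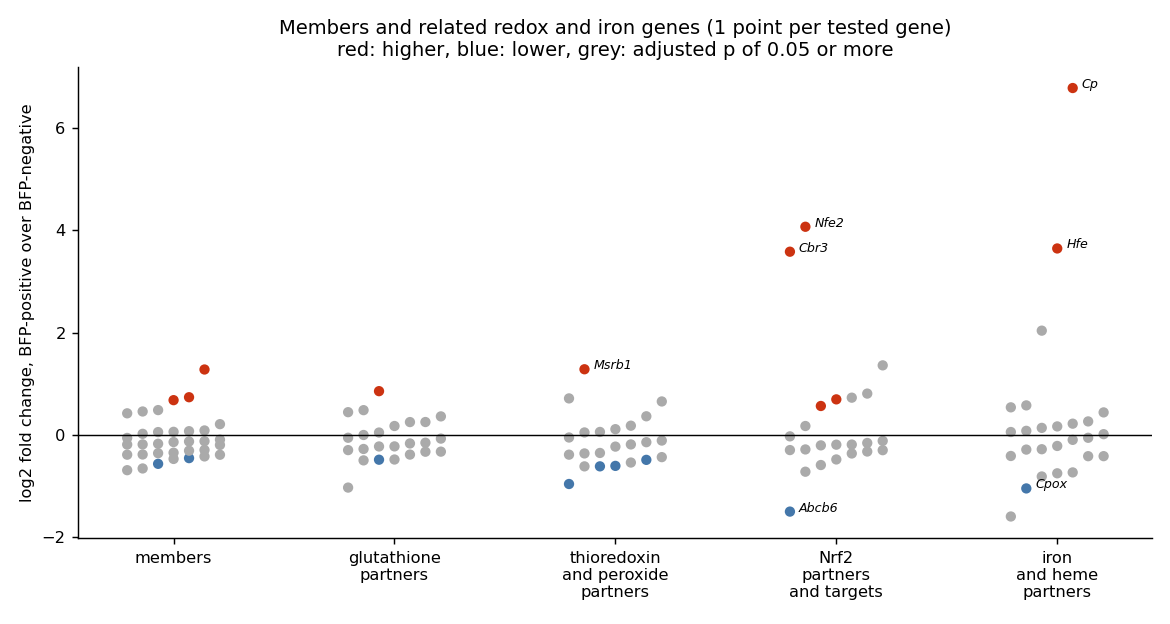
Log2 fold change, BFP-positive over BFP-negative (vertical axis), of each tested gene among the 34 members and the 4 lists of related genes; red is higher, blue lower and grey not past the threshold, and called genes of the 4 lists beyond 2-fold are named. The members lie between -0.69 and 1.28, while Cp, Nfe2, Hfe and Cbr3 of the related lists exceed 3.5.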

How the data were processed

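RNA-seq of 4 libraries of sorted, imiquimod-stimulated mouse pDCs was analysed, made with the SMART-Seq v4 kit, a PCR-based method without strand information, per the labels' protocols. Tools given in the submitters' processing notes are Subread, featureCounts and limma, with GRCm38 and mm10. The sources used here do not give versions, the strand setting or how reads with several matches were counted. The authors' deposited count table holds raw counts. The authors' deposited log2 RPKM values are scaled by gene length and library total. Genes were kept by filterByExpr (at least 10 counts, and 15 in total), so that 11706 genes were tested and 15473 were not, and BFP-positive was compared with BFP-negative cells by edgeR 4.0.16 (R 4.3.3, TMM, group only, 2 residual degrees of freedom, two-sided, adjusted over all tested genes). The SE is the log2 fold change divided by the square root of F. The test was checked on simulated data. Replicates were separate libraries by their counts (chi-square per degree of freedom 18.9 and 14.9). Alternatives used DESeq2 1.42.0, limma 3.58.1, other scalings, filters, a replicate block and each library left out.

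Genes named are all 37 members, with values by library for those past the threshold, the most abundant and the most different, and of each related list the 3 genes of smallest p and any called. Values of other members and the ratios were added after they were seen. Single values of some markers are not reported here. The members and lists were chosen with earlier results of these data known. Positions and promoters are from RefSeq (GRCm38.p6), which matched 37 and 31 members, and transcripts from GENCODE M21.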

Additional observations from a re-analysis of the deposited data

How the results depend on the processing

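Gpx1 and Prdx4 kept their direction and call under all 13 alternatives, and Prdx5 under 12. Gsr and Gstp1 kept their direction under all 13 and their call under 10 each. The number of members higher was 3, with 2 to 3 when 1 library was left out, and 5 with the replicate number as a block, where Hmox2 and Fth1 joined. The number lower was 2, with 0 to 2 when 1 library was left out, and 3 with the block, where Ftl1 joined. Both ferritin chains thus passed with the block, in opposite directions (adjusted p = 0.0231 for Fth1 and 0.0243 for Ftl1). Over all tested genes, 890 were higher (559 to 921 with 1 library left out) and 411 lower (245 to 408, and 760 with the block). Of the related genes, 8 were higher (5 to 8 with 1 library left out) and 7 lower (3 to 9, and 11 with the block). Leaving out a library leaves 1 sample in a group, which is then assumed to vary like the others. The titles share a code between same-numbered BFP-negative and BFP-positive libraries, which the sources used here do not explain. Same-numbered libraries deviated together at a correlation of 0.06, which at 2 libraries a group cannot exclude a shared origin. The reported test used the group only. With the block 16.2% of all tested genes were called, beside 11.1% without it.

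Signs turned only for genes that did not pass in any setting. Without 1 library, estimates ran from -0.36 to 0.0008 for Keap1, -0.24 to 0.46 for Gclc, -0.0491 to 0.24 for Gpx4, -0.30 to 0.11 for Txn2, -0.78 to 0.63 for Srxn1, -0.0123 to 0.14 for Prdx2, -0.0931 to 0.0004 for Prdx6, -0.53 to 0.0207 for Cat and -0.63 to 0.47 for Aco1. With library totals, Gclc was at -0.0046, Prdx2 at -0.0033 and Aco1 at -0.0430, and with upper-quartile factors Aco1 was at -0.0105. On the deposited log2 RPKM, Srxn1 was at -0.13, Prdx2 at -0.0049 and Aco1 at -0.14. With limma-voom, Srxn1 was at -0.0743 and Aco1 at -0.0654, and with the block they were at -0.0485 and -0.0635. The cause was not tested. Nqo1, Mgst2 and Srxn1 gave no value with genes under 10 CPM left out. At 2 libraries a group, members of low count such as Nqo1 and Mgst2 have intervals wider than 2-fold.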
